A study of Mus musculus with 4 samples.

Results

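In mouse Langerhans cells, 10 genes were followed that dioxin is known to induce through the aryl hydrocarbon receptor (AhR): Cyp1a1, Cyp1a2, Cyp1b1, Tiparp, Nqo1, Aldh3a1, Scin, Serpinb2, Slc7a5 and Xdh. They were taken by name, and every probe set that the platform annotation assigns to exactly 1 of these symbols was kept, which gave 14 probe sets of 22626. These were 3 each for Cyp1b1 and Tiparp and 1 for each of the other genes, of 12393 genes with such a probe set. The data were 4 one-colour Affymetrix arrays, 2 per group, of Langerhans cells, the dendritic cells of the epidermis. The mice had received an injection into the peritoneum of 100 µl of carrier, with 10 µg of TCDD (2,3,7,8-tetrachlorodibenzo-p-dioxin) in the TCDD group and with DMSO and olive oil alone in the control group. Cells were taken 24 h later and sorted to 95% purity. Each group held 1 array of back skin (control 2 and TCDD 2) and 1 of a preparation with no site in its labels (control 1 and TCDD 1). The labels of control 2 conflict: TCDD stands in its treatment protocol, while title and description call it a control. It was kept as a control, and values without it are given. The sources used here do not give strain, sex, age or number of animals. The spread that enters the p-values is how far the TCDD to control ratio differs between the 2 preparations, pooled in part across probe sets. How much of it is technical and how much reflects animals is not known.

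AhR rests in the cytosol in a complex with Hsp90 and other chaperones. After binding a ligand such as TCDD it enters the nucleus, pairs with ARNT and binds DNA at xenobiotic response elements, whose core reads GCGTG. The resulting gene battery includes enzymes that oxidize foreign and endogenous compounds, enzymes that detoxify the products, and feedback inhibitors of AhR such as Tiparp and Ahrr. Langerhans cells are known to contain AhR, and the comparison of TCDD with vehicle addresses whether these targets differ in the cells after exposure in the animal.

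The core was looked for in RefSeq promoter windows of mouse build GRCm38.p6, each from 250 bases before to 50 bases after an annotated start, on both strands. Windows were matched for 7 of the 10 genes (not for Aldh3a1, Slc7a5 and Xdh), and in 4 of them the window held GCGTG. Over all 32851 windows of this length, 32.4% held it. The longer element TNGCGTG, which contains the core, was in 0 of the 7 genes' windows and in 5.07% of all windows. The 4 stretches are shown because they hold the core, though none of them holds the longer element. Each is printed in the direction of its gene, with the core in capitals. The elements best known to drive Cyp1a1 lie farther upstream than this window reaches. A match is a description of letters and not of binding.
Cyp1a1, chr9:57697529-57697593, plus strand: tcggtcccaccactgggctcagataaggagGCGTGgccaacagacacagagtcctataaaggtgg
Scin, chr12:40134229-40134293, minus strand: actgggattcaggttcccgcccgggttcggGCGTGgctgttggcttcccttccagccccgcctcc
Cyp1b1, chr17:79715103-79715167, minus strand: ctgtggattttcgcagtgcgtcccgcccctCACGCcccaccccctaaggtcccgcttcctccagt
Tiparp, chr3:65528247-65528311, plus strand: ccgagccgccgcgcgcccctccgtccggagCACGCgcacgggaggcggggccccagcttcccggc
In Cyp1a1 and Scin the core reads along the gene, beginning 54 and 35 bases before the start. In Cyp1b1 and Tiparp it lies on the opposite strand and appears as CACGC, beginning 76 and 170 bases before the start. The windows of Cyp1a2, Nqo1 and Serpinb2 did not hold these letters.

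Values are MAS5 signals, a linear measure of hybridisation per probe set whose trimmed mean is the same on each array. Median signals were between 164.9 and 188.1 on the 4 arrays. For actin, the 3′ control probe set read 49.7 times the 5′ one on control 1 and between 3.48 and 7.71 times on the other arrays, a ratio that grows as RNA is shortened. Langerhans cell markers were not all bright. Epcam read between 7541 and 10032 and Cd207, which encodes langerin, between 2119.9 and 7211. Of the same 13 markers, Cdh1, which encodes E-cadherin, read between 137.8 and 206.6 and the integrin gene Itgax between 115.3 and 230.7, within the range of 21.4 to 235.6 of the probe sets for genes of other organs. Itgam, another integrin gene, read 37.1 or less on each array. A probe set was tested where its geometric mean signal was at or above 115.4, the 40th percentile, which 10 of the 14 probe sets from 7 of the 10 genes did. The fit was limma on log2 signals with treatment and preparation as terms.

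No AhR target gene passed the test between TCDD and control. Of the 10 tested probe sets 0 passed an adjusted p under 0.05 (limma), and 0 had an unadjusted p under 0.05. Over all 13576 tested probe sets 0.0% passed and 199 had an unadjusted p under 0.05, so the count does not set the targets apart. Both TCDD arrays lay above both controls for 1 of the 10 (a Tiparp probe set), against 12.4% of all tested probe sets, and below them for 1 of the 10 (a Cyp1b1 probe set), against 13.2%. By preparation, 2 were higher after TCDD in both (19.3% of all), 1 was lower in both (21.3%) and 7 went opposite ways (59.4%, equal ratios included). The median log2 difference, TCDD minus control, was 0.15 over the 10, of which 3 are of Tiparp, and -0.01 over all tested probe sets. With the brightest probe set of each of the 7 genes it was 0.07.

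**Figure D1:**
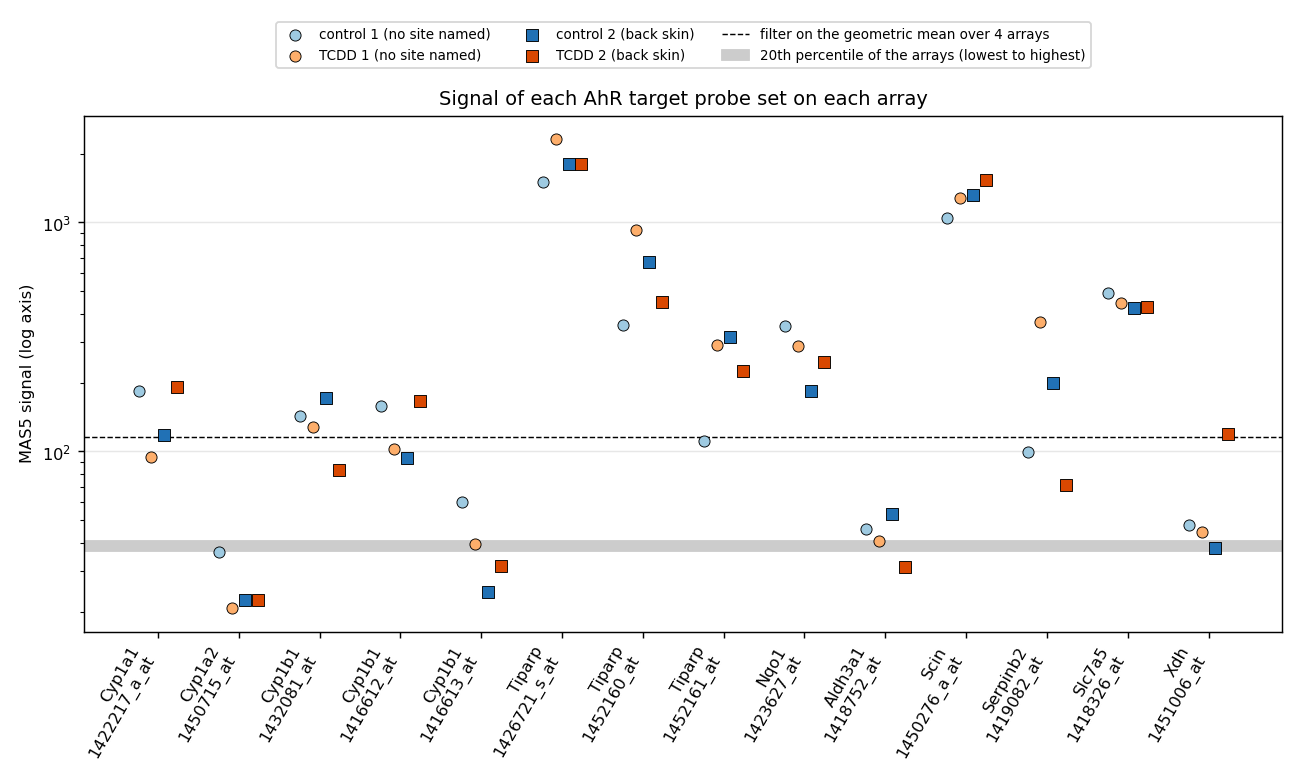
MAS5 signal (log axis) of the 14 probe sets of the 10 AhR target genes on the 4 arrays, with circles for the preparation with no site named, squares for back skin, blue for control and orange for TCDD; the dashed line is the 115.4 filter on the geometric mean and the grey band spans the 20th percentiles of the arrays, 36.6 to 40.6. Orange symbols lie above both blue ones only for Tiparp 1426721_s_at, and below both for Cyp1b1 1432081_at, Cyp1a2 and Aldh3a1.

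The cytochrome P450 genes of family 1 encode the monooxygenases most used as readouts of AhR. Cyp1a1 (probe set 1422217_a_at), an enzyme that oxidizes polycyclic aromatic hydrocarbons, read 182.8 on control 1 and 117.8 on control 2, against 94.9 on TCDD 1 and 190.7 on TCDD 2. Control 1 and TCDD 2 were thus the high arrays, and the groups overlapped. TCDD was 0.52-fold of control with no site named and 1.62-fold in back skin. The fitted fold over the 4 arrays was 0.92, with a 95% interval from 0.41 to 2.06 (limma, adjusted p = 0.9999). Between the 34.0th and the 52.9th percentile of its array, Cyp1a1 lay near the array's median on control 1 and TCDD 2 and lower on the others.

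The deposited signals come here without detection calls. Genes of other organs, such as albumin or insulin, served as a guide to what a probe set reads for a gene not known in Langerhans cells. The brightest probe sets of 12 such genes had geometric means from 21.4 to 235.6 with a median of 161.8, and 7 of the 12 lay at or above the 140.5 of Cyp1a1. Probe sets differ in how strongly they bind, so this gives a range and no ranking.

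Cyp1a2 (1450715_at), the paralog of Cyp1a1 best known from liver, read 36.3 and 22.5 in controls 1 and 2 and 20.7 and 22.4 in TCDD 1 and 2. These signals were under the 20th percentile of each array, so Cyp1a2 was below the filter and not tested.

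Cyp1b1, a P450 that metabolises estrogens and hydrocarbons outside the liver, was read by 3 probe sets with different patterns. Its brightest, 1432081_at, read 142.3 and 170.9 in controls 1 and 2 and 128.4 and 83.3 in TCDD 1 and 2, so the TCDD arrays were below both controls. The fitted log2 difference was -0.59 ± 0.48 (SE), a fold of 0.66 with an interval from 0.31 to 1.41. It ran from -0.91 without TCDD 1 to -0.28 without TCDD 2, and was -0.46 ± 0.56 (SE) without control 2. Relative to its error this was the largest difference of the 10 (limma, adjusted p = 0.9999). Probe set 1416612_at read 158.6 on control 1, 93.9 on control 2, 102.1 on TCDD 1 and 165.7 on TCDD 2, the same pair of high arrays as for Cyp1a1, with a fold of 1.07 and an interval from 0.47 to 2.41. Probe set 1416613_at was highest on control 1, read 39.5, 31.6 and 24.4 on TCDD 1, TCDD 2 and control 2, and was not tested. As many as 7 of the 12 organ-restricted probe sets also lay at or above each of the tested Cyp1b1 probe sets.

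Nqo1, Aldh3a1 and Xdh encode enzymes of quinone, aldehyde and purine oxidation or reduction. Nqo1 (1423627_at), a quinone reductase that NRF2 also induces, read 353.7 and 183.8 in controls 1 and 2 and 290.0 and 245.6 in TCDD 1 and 2. The TCDD values lay between the controls. TCDD was 0.82-fold of control with no site named and 1.34-fold in back skin, and the fitted fold was 1.05 (0.58 to 1.87). Its geometric mean was above those of all 12 organ-restricted probe sets.

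Aldh3a1 (1418752_at), an aldehyde dehydrogenase, read 45.8 on control 1 and 53.4 on control 2, against 40.6 on TCDD 1 and 31.4 on TCDD 2. Both TCDD values were below both controls, at signals between the 17.5th and the 23.5th percentile. Xdh (1451006_at), which encodes xanthine dehydrogenase, read 47.6, 44.5 and 37.9 on control 1, TCDD 1 and control 2 and 119.7 on TCDD 2. TCDD was thus 3.16-fold of control in back skin and 0.93-fold in the other preparation. Neither gene reached the filter, so neither was tested, and the high Xdh value rests on 1 array.

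Tiparp, also called PARP7, is a TCDD-inducible ADP-ribosyltransferase that acts back on AhR. All 3 of its probe sets had their highest or second highest value on TCDD 1 and their lowest on control 1. The brightest, 1426721_s_at, whose name ending marks probes that can match more than one transcript, read 1499 and 1792 in controls 1 and 2 and 2306 and 1808 in TCDD 1 and 2. Both TCDD arrays were above both controls, by little in back skin, where TCDD was 1.01-fold of control, against 1.54-fold in the other preparation. The fitted fold was 1.25 (0.71 to 2.17). Without control 1 its log2 difference was 0.19 and without TCDD 1 it was 0.14.

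The dimmer Tiparp probe sets went opposite ways in the preparations. Probe set 1452160_at read 358.5 on control 1 against 926.5 on TCDD 1, and 674.1 on control 2 against 450.6 on TCDD 2, a 2.58-fold higher signal after TCDD with no site named and a 0.67-fold one in back skin. Probe set 1452161_at read 111.2, 292.7, 316.0 and 225.5 in that order, 2.63-fold and 0.71-fold. Its geometric mean was 219.5, and 2 of the 12 organ-restricted probe sets lay at or above it. Fitted folds were 1.31 (0.62 to 2.77) and 1.37 (0.64 to 2.95). In both, control 1, the array with the actin ratio of 49.7, was the lowest of the 4, and TCDD 2, with 7.71, the next lowest. The part of RNA quality or of control 1 in these ratios was not tested. Without control 1 the log2 differences turned to -0.06 and -0.30. Without control 2, the array with conflicting labels, they were 0.85 ± 0.37 and 1.21 ± 0.40 (SE), each against control 1 alone (limma, adjusted p = 0.347 and 0.139).

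Scin, Serpinb2 and Slc7a5 are AhR-responsive genes outside xenobiotic metabolism. Scin (1450276_a_at) encodes scinderin, an actin-severing protein related to gelsolin, and read 1049.9 and 1312 in controls 1 and 2 and 1280.4 and 1529 in TCDD 1 and 2. TCDD was higher in each preparation, 1.22-fold with no site named and 1.17-fold in back skin, but TCDD 1 lay below control 2, so the groups overlapped. The fitted fold was 1.19 (0.70 to 2.04; limma, adjusted p = 0.9999). Back skin was above the other preparation in both groups. Leaving out each array in turn kept the log2 difference between 0.09 and 0.42.

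Serpinb2 (1419082_at), the inhibitor of urokinase known as PAI-2, differed most between arrays, by 5.17-fold from lowest to highest. Its controls read 99.0 and 198.8, TCDD 1 read 369.5 and TCDD 2 read 71.5. The TCDD arrays held both the highest and the lowest value: TCDD was 3.73-fold of control with no site named and 0.36-fold in back skin. Over the 4 arrays the fitted fold was 1.16, and its interval from 0.38 to 3.56 was the widest of the 10. Leaving out TCDD 2 gave a log2 difference of 1.40, and leaving out TCDD 1 gave -0.97. The geometric mean of Serpinb2 was 151.0, and 7 of the 12 organ-restricted probe sets lay at or above it.

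Markers of T cells, which also live in the epidermis, were higher on TCDD 1 and control 2, as Serpinb2 was. The summed signal of 7 measured T cell markers of 9 listed was 721.2 for control 1 against 1343 for TCDD 1, and 2024 for control 2 against 716.5 for TCDD 2. In 6 of the 7 both TCDD 1 and control 2 were above the other two, and Cd247 was the exception, with 139.2 on control 1 and 117.5 on TCDD 1. Over all tested probe sets 24.2% had these arrays above the other two. Among the markers, Cd3d, part of the receptor complex of T cells, was at 5.9 to 36.0 and Cd3e, its partner, at 112.7 to 471.3. Of the 13 Langerhans cell markers, 3 had TCDD 1 and control 2 above the other arrays. Epcam and Csf1r did not, and were lowest on TCDD 1, with 7541 and 8469. Langerin was among the 3 and high on the same arrays, at 2119.9, 5343, 7211 and 2155. The summed signal of 7 keratinocyte markers of 8 listed was 1171, 998.4, 1206 and 1587 on control 1, TCDD 1, control 2 and TCDD 2. Lor made up the largest part, with 678.4, 407.0, 479.1 and 772.0. In 2 of the 7 markers TCDD 1 and control 2 were above the other arrays, among them Krt15, between 9.5 and 21.6. Melanocyte markers (4 of 5 listed) summed to between 608.6 and 886.2, and fibroblast and endothelial ones (6 of 6) to between 630.9 and 1025, with TCDD 1 not among the high arrays in either. Those of mast cells, granulocytes and monocytes (5 of 6) summed to 538.7 on TCDD 1 and 513.2 on control 2, against 441.7 on control 1 and 427.3 on TCDD 2. Yet TCDD 1 and control 2 were both above the other arrays in only 2 of these 5 markers. Cpa3, S100a8 and S100a9 were highest on TCDD 2. Of the 6 fibroblast and endothelial markers, 2 had TCDD 1 and control 2 above the other arrays. No marker named here was at 0, but neither were the genes of other organs (geometric means 21.4 to 235.6), so this does not show that a cell type was present. The part of these cells in the Serpinb2 values was not tested. In sorted samples fewer cells of a type and less RNA per cell cannot be told apart. Control 1 and TCDD 2, the low arrays for Serpinb2, also had the highest actin ratios, 49.7 and 7.71. The part of RNA quality was not tested either.

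Slc7a5 (1418326_at), the light chain of the LAT1 amino acid transporter that brings tryptophan and other large neutral amino acids into cells, was the steadiest member. Its signals were 494.6 and 424.7 in controls 1 and 2 and 445.1 and 428.2 in TCDD 1 and 2, a 1.16-fold range over the 4 arrays. The fitted fold was 0.95 with an interval from 0.56 to 1.62.

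**Figure D2:**
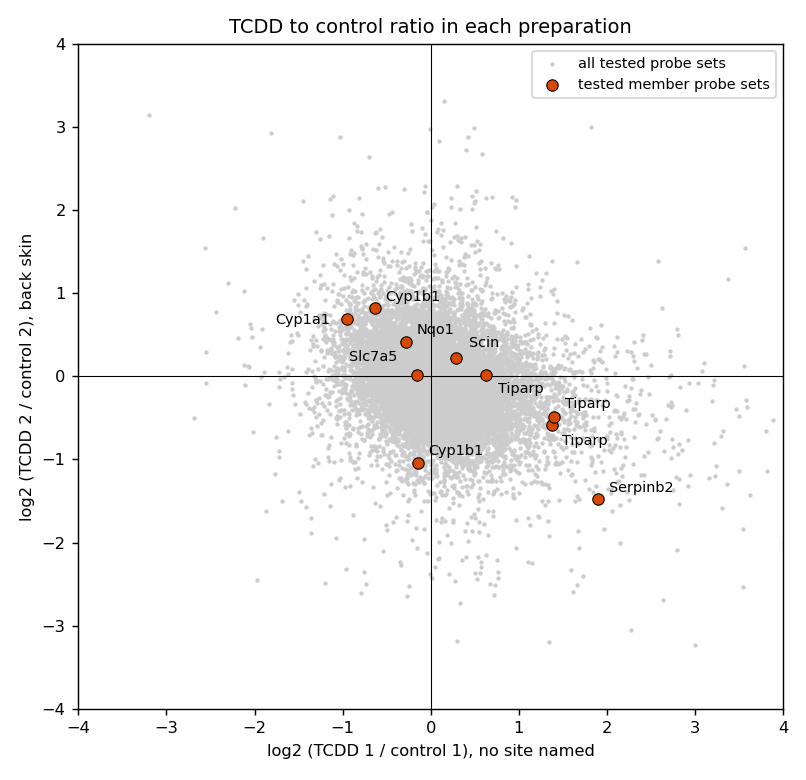
Log2 ratio of TCDD to control in the preparation with no site named (x axis) and in back skin (y axis), with grey points for the 13576 tested probe sets, of which 6 lie beyond the axes, and orange points for the 10 tested AhR target probe sets. Serpinb2 and the dimmer Tiparp probe sets lie at the lower right (above control with no site named, below it in back skin), Cyp1a1 and Cyp1b1 1416612_at at the upper left, and Scin and the brightest Tiparp probe set are the ones with both ratios above 0.

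Read across preparations, the targets with opposite ratios were of more than one kind. Of the 7, 3 (Serpinb2 and the Tiparp probe sets 1452160_at and 1452161_at) were above control with no site named and below it in back skin, and 4 (Cyp1a1, Cyp1b1 1416612_at, Nqo1 and Slc7a5) the reverse. Over all tested probe sets these kinds numbered 4554 and 3501. Each back skin ratio uses control 2, whose labels conflict, so opposite signs cannot be assigned to the preparation. A ratio of at least 2-fold in either direction was found for 3 of the 10 with no site named, against 8.54% of all tested probe sets, and for 2 of the 10 in back skin, against 6.18%; each ratio compares 1 array with 1 array and has no replicate. The 3 were the same Serpinb2 and Tiparp probe sets, of which the Tiparp probe sets read the same gene.

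**Figure D3:**
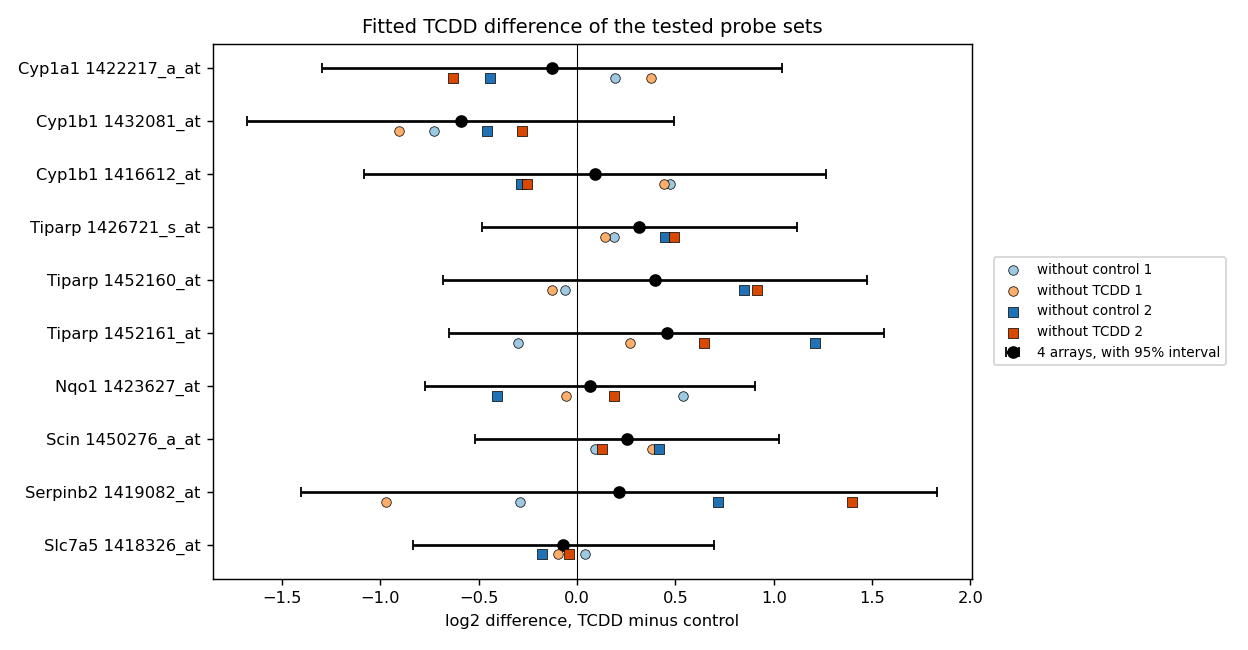
Fitted log2 difference, TCDD minus control, of the 10 tested AhR target probe sets over 4 arrays (black points, bars are 95% intervals from limma), with coloured symbols for the difference after 1 array is left out. Each interval includes 0, and the symbols lie on both sides of 0 for all probe sets but Cyp1b1 1432081_at, Tiparp 1426721_s_at and Scin.

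The precision of the arrays sets what these values can show. Standard errors of the log2 differences had a median of 0.47 for the 10 targets and of 0.36 for all tested probe sets. Upper interval ends were between 1.41-fold (Cyp1b1 1432081_at) and 3.56-fold (Serpinb2). For Cyp1a1, the upper end of 2.06-fold holds for the arrays as labelled. Without control 2, against control 1 alone, the log2 differences were -0.44 ± 0.49 for Cyp1a1, 0.45 ± 0.34 for Tiparp 1426721_s_at, 0.42 ± 0.34 for Scin, 0.72 ± 0.64 for Serpinb2 and -0.41 ± 0.34 for Nqo1 (SE). No target passed the test in that fit, in which 285 of the 13576 probe sets did.

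Back skin and the other preparation were compared in the same fit. The labels name a site for back skin only and date the experiments of the control arrays differently, so site and experiment cannot be told apart. Of the 10 target probe sets 0 differed at an adjusted p under 0.05 (limma, adjusted p = 0.9994 for each), 0 had an unadjusted p under 0.05, and 0.0% of all tested probe sets passed, with 274 at an unadjusted p under 0.05. Nqo1 was 0.66-fold in back skin (0.37 to 1.19) and lower there in both control and TCDD. Scin was 1.22-fold (0.71 to 2.09) and higher there in both. Slc7a5 was 0.91-fold (0.53 to 1.54), with lower values in both. In the other 7 tested probe sets back skin was above in one group and below in the other, as for Serpinb2, whose log2 ratios (back skin over no site named) were 1.01 in control and -2.37 in TCDD.

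Other genes of the pathway were described from lists, with 1 probe set per gene, the brightest. In the 4 lists that follow, 0 genes had an adjusted p under 0.05 and 0 an unadjusted one (limma). Of 10 listed components of AhR signalling 7 were on the array and 5 were tested, with 0 called, 0 higher and 1 lower after TCDD in both preparations and a median log2 difference of -0.28. Ahr read 910.8 on control 1, 1392 on control 2, 1127 on TCDD 1 and 681.4 on TCDD 2, so TCDD 2 was lowest. Ahrr, its repressor and itself a target, read 1861 and 959.7 in controls 1 and 2 and 1112 and 1049 in TCDD 1 and 2, with control 1 the high array. Ncoa1, a coactivator, was the one lower in both (-0.28 ± 0.34, SE).

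A second list held 18 further genes reported to respond to AhR, of which 13 were on the array and 8 tested, again with 0 called. One was higher in both preparations, Socs2, a suppressor of cytokine signalling, at 2530.0 on control 1 and from 6641 to 7314 on the others (0.74 ± 0.38, SE). It was low on control 1 alone. Another 3 were lower in both, among them the tryptophan-degrading enzymes Ido1 (-0.69 ± 0.37, SE) and Ido2 (-0.91 ± 0.46, SE). The list's median was -0.23.

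Relatives and partners of the members made up another list, with 17 of 20 on the array and 14 tested. Again 0 were called, 3 were higher and 1 lower in both preparations, and the median was 0.03. Gsn, the gelsolin relative of Scin, read 11221 and 3808 in controls 1 and 2 and 7652 and 12181 in TCDD 1 and 2, high on control 1 and TCDD 2 as Cyp1a1 was. Cyb5r3, a cytochrome b5 reductase, was highest on control 1 at 5761 and lowest on TCDD 1 at 2287, with 2807 on control 2 and 3927 on TCDD 2. Slc7a11, a cystine transporter subunit that is also an NRF2 target, was lower in both (-0.39 ± 0.34, SE). Of 12 NRF2 targets 10 were on the array and 8 tested, with 0 called, 0 higher and 4 lower in both and a median of -0.27. Keap1, the inhibitor of NRF2, differed by 0.49 ± 0.38 (SE), Gsr, a glutathione reductase, by -0.49 ± 0.44 and Gstm1, a glutathione transferase, by -0.41 ± 0.36.

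The genes with the most similar profile over the 4 arrays were sought for 2 members, among 12407 tested probe sets of other genes, by the distance between log2 signals centred on their own mean. For Tiparp 1426721_s_at, the member with the highest mean signal, they were Nudt22 (distance 0.029), Abcb1a (0.033) and Cxxc5 (0.040), and 3210 probe sets lay within 0.5, as its profile is shallow. For Serpinb2, the member with the largest range, they were Kdm6a (0.350), Glcci1 (0.427) and a probe set of Hsp90aa1 (0.560), and 2 lay within 0.5. That Hsp90aa1 probe set, of the chaperone that holds AhR in the cytosol, had 5551 on TCDD 1 and 3646 on control 2, against 1263 on control 1 and 1521 on TCDD 2. The brightest Hsp90aa1 probe set read between 10259 and 11351, so probe sets of this gene disagreed. With 4 arrays these distances are descriptions.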

How the data were processed

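The authors deposited MAS5 signal intensities, 1 per probe set and array on a linear scale; affy and MAS5 stand in the submitters' processing notes without a version, and no detection calls were used. Of 22690 rows, 64 control probe sets served only for RNA quality; of the other 22626, 20380 had 1 symbol, 691 several and 1555 none named here. All 10 member symbols matched a RefSeq table (GRCm38.p6) by gene ID. The log2 of the deposited signals was fitted without further normalization with limma 3.58.1 in R 4.3.3 (eBayes with trend, 1 residual degree of freedom, Benjamini-Hochberg adjustment over 13576 probe sets, threshold 0.05). The fit was tested on 20 simulated data sets with known changes and no difference between preparations. At the 0.05 threshold it recovered 3.6% of 2-fold, 53.7% of 4-fold and 93.7% of 8-fold changes. False calls averaged 14.4 per data set, and the 95% intervals held the true value for 94.6% of probe sets. Each data set held changes in many probe sets at once, so the recovered shares do not carry over to changes in a few genes. Lists used the brightest probe set per gene. Members and lists were chosen with earlier results of these data known. Every member probe set is named; of each other list of AhR, relative and NRF2 genes, up to 3 with the largest difference; and 3 nearest profiles for 2 members. Marker genes and single list members are named beside the results they touch. Samples were grouped by title and description. The number of arrays limits precision. Arrays of the 2 preparations are treated as pairs, which the labels do not state. The alternatives changed the filter (none, or the 60th percentile instead of the 40th), the normalization (quantile, or centring on the median), and used a floor at the 20th percentile, an offset of 32, no variance trend, no preparation or treatment term, each array left out (treatment or preparation term only), and the mean over a gene's probe sets.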

Additional observations from a re-analysis of the deposited data

Results flagged for a closer look

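The TCDD to control ratio had opposite signs in the 2 preparations for 7 target probe sets. Each ratio rests on 1 array per group, and the difference between preparations was not tested, since the 4 arrays leave no error for it. Every back skin ratio uses control 2, the array with conflicting labels, and the part of its labelling in the signs was not tested. The log2 ratio with no site named minus that in back skin was 3.38 for Serpinb2, 1.95 for Tiparp 1452160_at and 1.88 for Tiparp 1452161_at. It was -1.64 for Cyp1a1, -1.45 for Cyp1b1 1416612_at, -0.70 for Nqo1 and -0.16 for Slc7a5. Opposite or equal ratios were also found in 59.4% of all tested probe sets.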

How the results depend on the processing

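None of the 10 tested target probe sets passed 0.05 for TCDD or for the preparation in any of up to 12 alternatives (limma, smallest adjusted p 0.139 and 0.287). Normalization and offset turned 0 of the 10 signs in either comparison. The filter, the variance trend and the terms could not turn a sign, since they leave the fitted difference unchanged in this balanced design. The floor lay below every signal of these probe sets and changed no difference either. Leaving out 1 array, where a group's only array is taken to vary as the other group does, turned 7 of 10 in each. The TCDD log2 differences then ran from -0.63 to 0.38 for Cyp1a1, -0.29 to 0.47 for Cyp1b1 1416612_at, -0.13 to 0.91 for Tiparp 1452160_at, -0.30 to 1.21 for Tiparp 1452161_at, -0.41 to 0.54 for Nqo1, -0.97 to 1.40 for Serpinb2 and -0.18 to 0.04 for Slc7a5. Those of back skin minus the other preparation ran from -0.29 to 0.66 for Cyp1a1, -0.44 to 0.38 for Cyp1b1 1416612_at, -0.70 to 0.34 for Cyp1b1 1432081_at, -0.36 to 0.26 for Tiparp 1426721_s_at, -0.75 to 0.62 for Tiparp 1452160_at, -0.13 to 1.26 for Tiparp 1452161_at and -1.63 to 0.27 for Serpinb2. Over all probe sets, calls for TCDD ran from 0 to 285, with 12 without control 1 and 285 without control 2, and calls for the preparation from 0 to 89, the latter without TCDD 1; the cause was not tested. Without the preparation term, that is with no replicate block, 0 probe sets passed. The 60th percentile filter left 5 of the 10 untested, so those have no value there.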
